A study of Homo sapiens with 12 samples.

Results

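The very long genes of HCT116 cells were examined as a class, because their RNA takes long to make and their DNA is thought to need topoisomerases during transcription. A gene was a member if its exons lay on a single chromosome name and strand, if it spanned at least 400 kb of the hg19 genome from the first exon start to the last exon end, and if it had a mean of at least 50 counted reads over the 12 libraries. By this rule 135 of 26364 genes were members. Another 379 genes of 400 kb or more were below the count limit, and 5 antisense or overlapping transcripts were left out by name. The members were thus chosen by their span and selected on their mean count over all libraries, and neither is a result. Just inside the span limit lay *MACF1* (403.0 kb) and just outside it *DTNA* (398.6 kb). Just inside the count limit lay *SLC44A5* (mean 50.3 reads) and just outside it *NBPF10* (mean 49.8 reads).

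RNA-seq was performed on total RNA of HCT116, a human colon carcinoma cell line, with 1 library for each of 12 conditions. HCT116 WT cells and p65-deficient cells received no inhibitor, the TOP1 inhibitor camptothecin (CPT) or the TOP2 inhibitor ICRF193 (5 µM for 2 h each), and were then harvested either unstimulated (0 h) or after 1 h of TNFα at 20 ng/ml. The p65-deficient cells are labelled as an shRNA line, while the methods of the study describe a single clone made with CRISPR-Cas9, so that a difference from WT cells is a difference between 1 clone and its parental line. Because no condition had a second library, libraries that differed only in the factor tested were matched, which gave 4 pairs per inhibitor, 3 pairs for TNFα in WT cells and 6 pairs for the cell lines. Between 8101212 and 22051046 reads were counted per library. The shallowest were 4 p65-deficient libraries, ICRF193 at 0 h and all conditions at 1 h. TNFα and depth therefore cannot be told apart in that line without inhibitor or with CPT. At 0 h in that line, ICRF193 had 8755001 reads, beside 20524958 without inhibitor and 18502365 with CPT. In these pairs depth and ICRF193 cannot be told apart either. The epithelial genes *EPCAM* (326 to 455 CPM, the reads of a gene per 1000000 counted reads after TMM scaling of the libraries) and *CDH1* (74.1 to 107 CPM) were expressed throughout, while the leukocyte gene *PTPRC* (at most 0.121 CPM) and the endothelial gene *PECAM1* (at most 0.168 CPM) were near 0. The fibroblast gene *COL1A1* was not, with 5.22 to 13.7 CPM.

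Topoisomerases cut and reseal DNA to release the twist that builds up ahead of and behind RNA polymerase. TOP1 cuts 1 strand, and CPT traps it on the DNA. TOP2 cuts both strands, and ICRF193 locks it in a closed form around the DNA without trapping a break. Very long genes carry long introns, are over-represented among genes for cell adhesion, signalling and the nervous system, and include several common fragile sites, which are regions that tend to break when replication is impaired. NF-κB p65, encoded by *RELA*, is the transcription factor through which TNFα induces most of its early target genes.

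The 135 members spanned 403 to 1475 kb (median 498 kb), but their merged exons covered only 1.56 to 28.3 kb (median 6.13 kb). A median of 1.12% of the span was exonic, and the longest intron of a member had a median length of 147 kb. Reading from the 5′ end, the first 100 kb of the gene held a median of 11.8% of the exonic bases. Members took 0.515% to 0.603% of all counted reads. The mean count ran from 50.3 to 4515 reads, and per length the most highly expressed members were *SND1* (61.1 RPKM, reads per kb of exon and per 1000000 counted reads), a nuclease-domain protein of RNA metabolism, *FAF1* (44.6 RPKM), a ubiquitin-binding adaptor, and *LRBA* (27.8 RPKM), a protein of vesicle traffic. The 3 longest were *CCSER1* (1475 kb), *WWOX* (1113 kb) and *PTPRN2* (1049 kb). The counting did not use strand and assigned reads to exons only. No exonic base was shared with another gene in 118 members, and over 10% was shared in *KAZN* (36.8%), *BRE* (10.8%) and *PCCA* (10.7%), whose counts are less certain.

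CPT lowered the RNA of many very long genes and raised that of few. Of the 135 members, 47 fell and 4 rose at an adjusted p under 0.05 (edgeR quasi-likelihood test over the 4 pairs, Benjamini-Hochberg over all 13993 genes tested). Among all genes tested, 25.1% fell and 23.2% rose, and among the 11308 that averaged 50 or more reads, 28.9% fell and 21.6% rose. The members had 34.8% of falls and 2.96% of rises. The excess of falls depended on the test: DESeq2 lowered 21.5% of the members, beside 20.6% of all genes and 24.3% of those averaging 50 or more reads, and edgeR without the pairs as a block 22.2%, beside 20.8% and 24.0%. The share of rises stayed below the background, with 1.48% of the members by DESeq2 and without the block, beside 17.3% and 16.2% of all genes. The median log2 fold change of the members was -0.13, beside 0.02 for all genes tested. The fall was small for most members: among the 47 it had a median of -0.34 on the log2 scale, and 4 members fell by more than 1. The sign was negative in all 4 pairs for each of the 47 members that fell. The 4 pairs gave member medians of -0.11 and -0.10 in WT cells at 0 and 1 h TNFα, and of -0.16 and -0.18 in p65-deficient cells. In each pair 86 to 97 members had a ratio below 0 (63.7% to 72.4%), beside 49.8% to 53.2% of the genes averaging 50 or more reads. In cultured cells, less RNA per cell and fewer cells that express a gene cannot be told apart here, and every level is a share of its library.

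**Figure D1:**
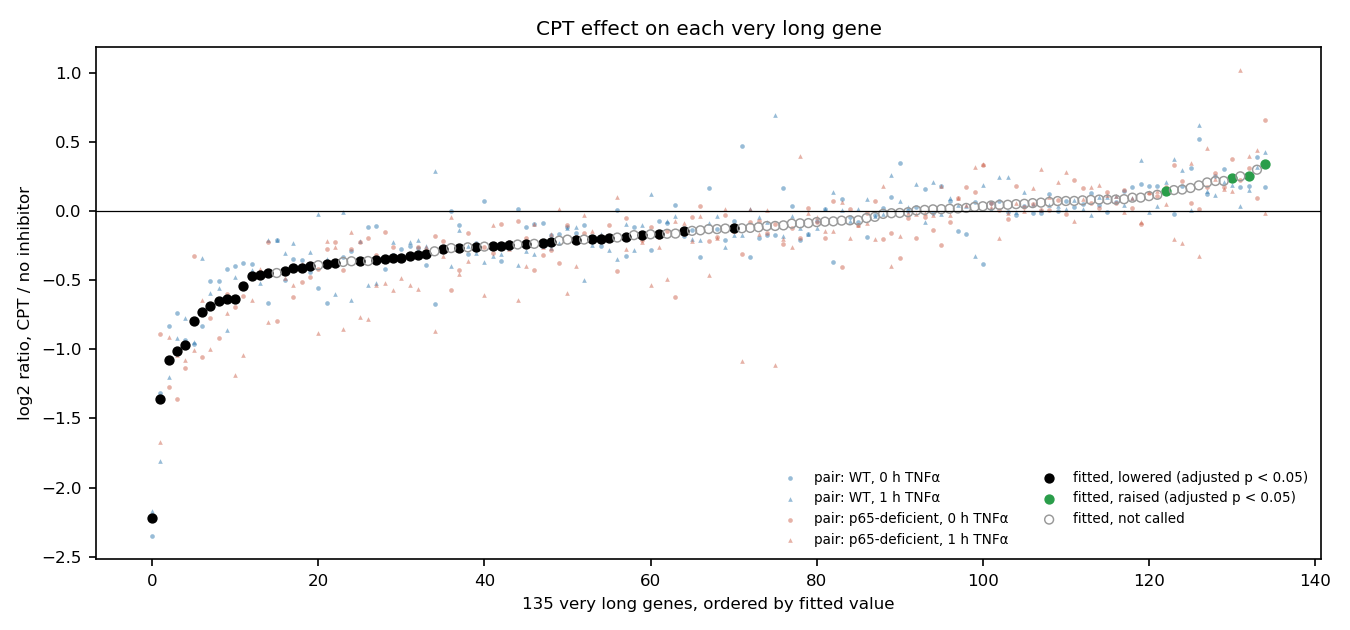
Log2 ratio of CPT to no inhibitor (y axis) for each of the 135 very long genes (x axis, ordered by the fitted value). Large circles are the fitted values over 4 pairs, black if lowered and green if raised at an adjusted p under 0.05, and small symbols are single pairs with at least 10 reads in both libraries; 92 fitted values lie below 0 and 43 above it.

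The members that fell most were a signalling enzyme, a ubiquitin ligase, an ion channel subunit, a protein kinase and a zinc finger gene. *PDE4B* (chromosome 1, 66258193 to 66840262, hg19), a phosphodiesterase that breaks down cAMP, had 14.9 CPM without and 2.92 CPM with CPT in WT cells at 0 h, and 14.7 and 3.28 CPM at 1 h TNFα. In p65-deficient cells it was close to absent, with 4 and 2 reads at 0 h and 1 and 0 reads at 1 h. Its fitted level fell by 78.6% (log2 fold change -2.22, standard error 0.18, adjusted p = 2.15e-06), a value that rests on WT cells, where the 2 pairs alone gave -2.28.

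*MARCH1* (chromosome 4, 164445450 to 165304407), a membrane ubiquitin ligase that removes immune receptors from the cell surface, had 4.50 and 1.81 CPM without and with CPT in WT cells at 0 h, and 4.49 and 1.28 CPM at 1 h. In p65-deficient cells the values were 4.64 and 2.50 CPM at 0 h, and 5.43 and 1.71 CPM at 1 h. Every CPT library was below every library without inhibitor, and the log2 fold change was -1.36 (standard error 0.19, adjusted p = 0.000141), with pairs between -1.81 and -0.89. *GRIN2B* (chromosome 12, 13714410 to 14133022) encodes a subunit of the NMDA glutamate receptor. It had 3.12 and 1.75 CPM in WT cells at 0 h, 3.18 and 1.38 CPM at 1 h, 13.0 and 5.39 CPM in p65-deficient cells at 0 h, and 13.7 and 7.32 CPM at 1 h. The lines stood apart in level, so the groups overlapped, but within each line CPT was below no inhibitor at both times, and the log2 fold change was -1.08 (standard error 0.14, adjusted p = 7.79e-05).

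*PRKCE* (chromosome 2, 45879043 to 46415129), the epsilon isoform of protein kinase C, had 18.4 and 11.0 CPM without and with CPT in WT cells at 0 h, 19.7 and 10.4 CPM at 1 h, 23.2 and 9.04 CPM in p65-deficient cells at 0 h, and 23.2 and 11.2 CPM at 1 h. *ZNF407* (chromosome 18, 72342919 to 72777628), a zinc finger protein, had 29.9 and 15.7 CPM, 29.5 and 17.3 CPM, 30.6 and 13.9 CPM, and 32.4 and 15.4 CPM in the same order. For both genes all 4 CPT libraries lay below all 4 libraries without inhibitor. The log2 fold change was -1.01 (standard error 0.11, adjusted p = 2.26e-05) for *PRKCE* and -0.97 (standard error 0.09, adjusted p = 5.10e-06) for *ZNF407*.

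**Figure D2:**
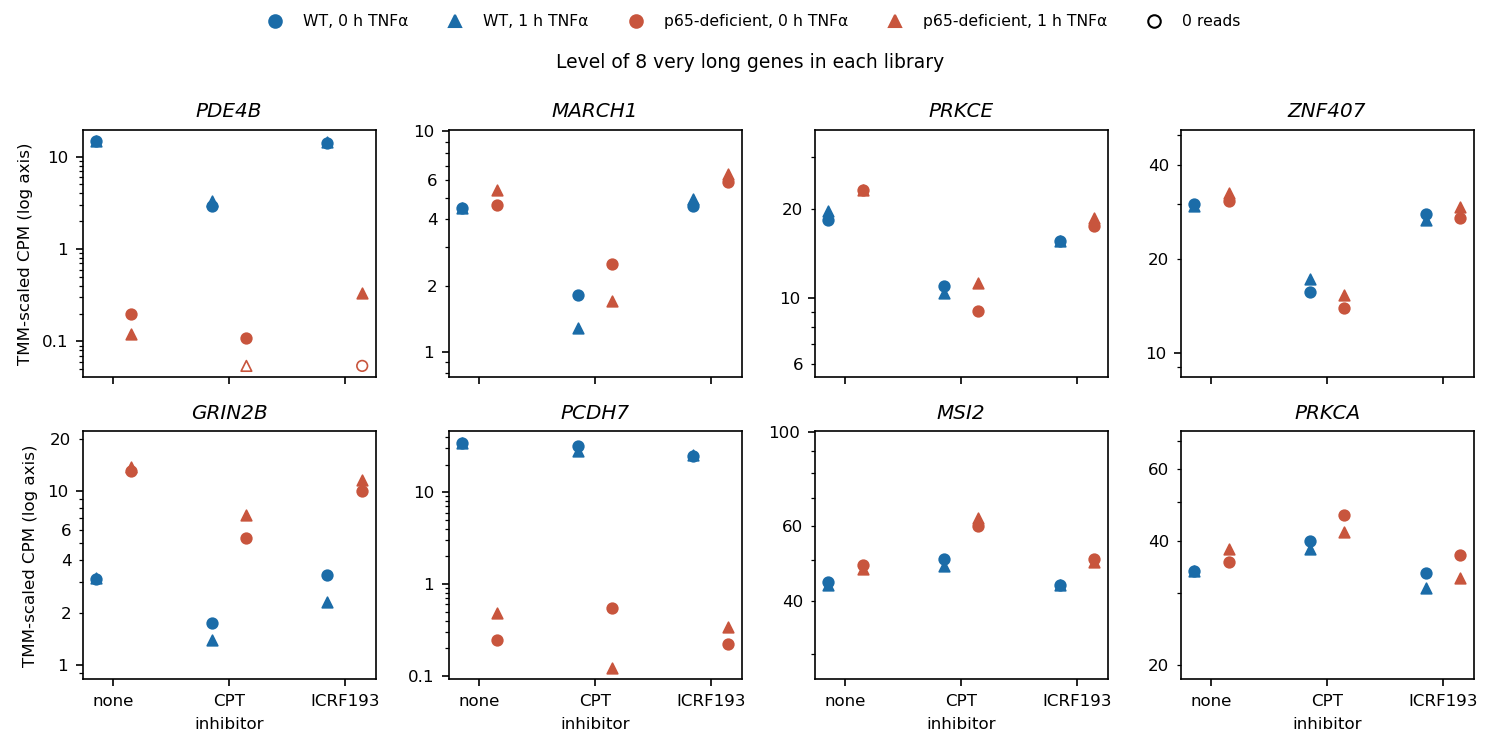
TMM-scaled CPM (log axis, a separate scale in each panel) of 8 very long genes in the 12 libraries, by inhibitor (x axis), cell line (colour) and TNFα (symbol); open symbols are libraries with 0 reads, drawn below the lowest value. *MARCH1*, *PRKCE* and *ZNF407* are lower in all 4 CPT libraries, *PDE4B* and *PCDH7* are near 0 in the p65-deficient line, and *MSI2* and *PRKCA* are higher with CPT.

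The 4 members that rose with CPT did so by little. *MSI2*, an RNA-binding protein of the Musashi family, had 44.4 and 50.2 CPM without and with CPT in WT cells at 0 h, 43.6 and 48.3 CPM at 1 h, 48.6 and 60.1 CPM in p65-deficient cells at 0 h, and 47.6 and 62.7 CPM at 1 h. It rose by 0.25 on the log2 scale (standard error 0.06, adjusted p = 0.0068). *PRKCA*, the alpha isoform of protein kinase C, rose by 0.24 (standard error 0.07, adjusted p = 0.012), in the opposite direction to *PRKCE*. *PTPRG*, a receptor tyrosine phosphatase, rose by 0.14 (adjusted p = 0.0368), and *FBXL17*, a substrate receptor of a ubiquitin ligase, by 0.34 (adjusted p = 0.0377). *FBXL17* was above 0 in 3 of 4 pairs only (from -0.02 to 0.66), and the other members of this group in all 4. Each of these 4 calls was lost in at least 1 of the other analyses described in the closing section, and with the WT pairs alone 0 of the 4 passed.

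Among the 5 longest genes, the CPT log2 fold change ran from -0.73 to 0.00, beside a median of -0.13 for all members. *PTPRN2*, a receptor-type phosphatase of secretory vesicles, fell by 0.73 on the log2 scale with CPT (standard error 0.17, adjusted p = 0.00448). The other 4 did not pass the test, which says little for *CCSER1* and *ASTN2*, with means of only 69.7 and 92.8 reads. *CCSER1*, a coiled-coil gene at a fragile site, had a log2 fold change of -0.37 (adjusted p = 0.0642), *ASTN2*, an astrotactin of neuronal migration, -0.27 (adjusted p = 0.124), and *CAMTA1*, a calmodulin-binding transcription activator, -0.21 (adjusted p = 0.0793). *WWOX*, an oxidoreductase gene at a fragile site, had 8.80 to 9.87 CPM in the 4 libraries without inhibitor and 8.60 to 10.9 CPM in the 4 CPT libraries, and a log2 fold change of 0.00 (standard error 0.11).

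By role, 91 members stood in at least 1 of 8 lists and 44 in none, and 7 of the lists are described. The lists overlap, with 9 genes in more than 1. They are loose and partial groupings. Beside the counts that follow, 34.8% of all members and 28.9% of all genes averaging 50 or more reads fell with CPT. The lists for transcription and chromatin (37.5%) and for vesicle traffic (26.3%) were close to these shares. Of 7 members listed for cell adhesion, junctions and polarity, 5 fell with CPT and 1 rose (*PTPRG*). This list is partial. Left out of it and in no list were *INADL*, *LAMA2* and *FRAS1*, which fell, and *PCDH7* and *CASK*, which were not called. The listed members that fell included *PARD3* (-0.33, adjusted p = 0.000931), a polarity scaffold, and *MAGI1* (-0.31, adjusted p = 0.000525), a scaffold of tight junctions. The receptor phosphatase gene *PTPRK* (-0.15, adjusted p = 0.0314) was also among them. The list for kinases, phosphatases, phosphodiesterases and signalling adaptors had 17 members, of which *FBXL17*, *HECW1* and *CAMKMT* belong to none of these classes. Of the 17, 9 fell and 3 rose (*PRKCA*, *PTPRG* and *FBXL17*), and the list had a median of -0.23. The best counted were *RPTOR* (-0.43, standard error 0.05, adjusted p = 2.75e-05), the scaffold of mTORC1, and *TIAM1* (-0.13, adjusted p = 0.0308), a guanine nucleotide exchange factor.

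Among the best counted members, *DST*, which links filaments of the cytoskeleton, had 331, 308, 312 and 390 CPM without inhibitor and 266, 264, 261 and 263 CPM with CPT, so that the groups did not overlap, and fell by 0.34 (standard error 0.06, adjusted p = 0.000434). Its relative *MACF1* had 257 to 308 CPM without inhibitor and 256 to 290 CPM with CPT, overlapping groups with a log2 fold change of -0.05 (adjusted p = 0.4). Of 16 transcription factors and chromatin regulators, 6 fell and 0 rose. Among them *ZBTB20*, a zinc finger repressor with the most exonic sequence of all members, fell by 0.47 (adjusted p = 4.36e-05) and *ATXN1*, a chromatin-associated repressor, by 0.80 (adjusted p = 0.000424). *STAG1*, a cohesin subunit, had a log2 fold change of 0.08 (adjusted p = 0.214).

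Of 19 members for vesicle traffic, membranes and cilia, 5 fell and 0 rose, and the 2 best counted did not pass, *LRBA* at -0.07 (adjusted p = 0.191) and *FAF1* at 0.08 (adjusted p = 0.154). The list for metabolic and mitochondrial enzymes had 9 members, among them the astrotactin gene *ASTN2*, which is not such an enzyme. Of the 9, 1 fell, *OXR1* (-0.23, adjusted p = 0.0168), which protects against oxidative damage. *ADK*, adenosine kinase, had a log2 fold change of 0.11 (adjusted p = 0.155). Of 9 members listed for RNA and DNA metabolism, 1 fell and 1 rose (*MSI2*). The 1 that fell was *MAD1L1*, a mitotic checkpoint gene that fits the name of the list poorly. *SND1* had a log2 fold change of 0.02 (adjusted p = 0.769). Of 6 genes at fragile sites, only *PTPRN2* fell, and *RAD51B*, a recombination gene, had a log2 fold change of 0.15 (adjusted p = 0.317). The list medians for enzymes and for RNA and DNA metabolism were 0.04 and 0.06. Differences between the lists were not tested.

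To place the class, all genes that averaged 50 or more reads were divided by genomic span. With CPT, the share of genes raised declined with each step in span, from 42.5% of 2567 genes under 10 kb to 23.6%, 11.9%, 7.64%, 4.38% and, for the very long genes, 2.96%. The share lowered did not climb in the same way. It was 19.2% under 10 kb, 26.7% at 10 to 30 kb, 33.3% at 30 to 100 kb, 39.0% at 100 to 200 kb, 37.2% at 200 to 400 kb and 34.8% in the very long genes. The medians followed, at 0.15, 0.03, -0.05, -0.11, -0.11 and -0.13 on the log2 scale. The very long genes thus resembled the genes of 100 to 400 kb in how often they fell. These are shares over genes, which are not independent replicates, and were not tested.

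**Figure D3:**
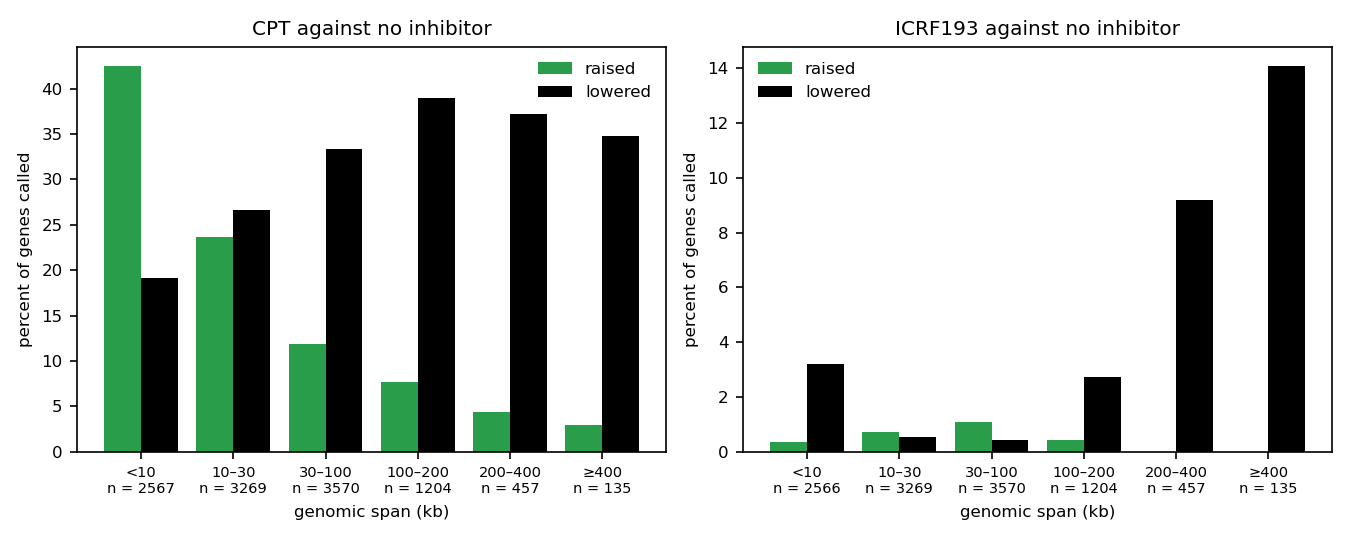
Percent of genes averaging 50 or more reads that were raised (green) or lowered (black) at an adjusted p under 0.05, by genomic span in kb (x axis, with the number of genes), for CPT on the left and ICRF193 on the right, on different y scales that both start at 0. With CPT the raised share drops to 2.96% in the longest class, and with ICRF193 the lowered share is highest there, at 14.1%.

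Among the members themselves, span was only weakly related to the response. Across the 135 genes Spearman's correlation coefficient between the CPT log2 fold change and the span was -0.16. It was -0.37 with exonic length, -0.05 with the number of exons, -0.11 with the longest intron, 0.23 with the share of exonic bases in the first 100 kb, 0.17 with mean count and 0.34 with RPKM. These values describe genes measured in the same libraries, and the measures are linked, since exonic length had a coefficient of -0.61 with the share of exonic bases in the first 100 kb and of -0.34 with RPKM. In groups of 45 members, 6 of those with the shortest exonic length (1.56 to 4.60 kb) fell with CPT, against 19 of the middle group and 22 of those with the longest (8.76 to 28.3 kb), and the medians were -0.01, -0.19 and -0.21. By position, 19 of the 45 members with the fewest exonic bases in the first 100 kb fell (median -0.23), against 12 of the 45 with the most (median -0.02).

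Long genes were also set beside shorter relatives, genes of the same family, superfamily or complex with a span under 200 kb. Of 36 pairs, formed by 32 long genes and 32 relatives of 6.13 to 174 kb, the long gene had the lower CPT log2 fold change in 24, with a median difference of -0.09. Among the 32 long genes 9 fell and 2 rose, and among the 32 relatives 6 fell and 9 rose. Of all genes that averaged 50 or more reads, 28.9% fell and 21.6% rose. The long genes of this set thus fell about as often as genes in general and rose less often. *PRKCE* fell while *PRKCD* (31.5 kb) had a log2 fold change of -0.15 (adjusted p = 0.225). *PLCB1*, a phospholipase C, fell by 0.55 (adjusted p = 0.0077) and its relative *PLCB3* (17.9 kb) rose by 0.29 (adjusted p = 0.000612). *INPP4B*, a phosphoinositide phosphatase, fell by 0.23 (adjusted p = 0.00261) and *INPP4A* (146 kb) rose by 0.29 (adjusted p = 0.00334). *PTPRM* fell by 0.34 (adjusted p = 0.00996) and *PTPRF* (92.8 kb), which is also a receptor phosphatase, rose by 0.14 (adjusted p = 0.0191). *MBD6* (7.27 kb) rose by 0.96 (adjusted p = 0.00037), while *MBD5*, also of the methyl-CpG-binding domain family, had a log2 fold change of -0.36 (adjusted p = 0.0827).

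The opposite order was also seen. The short *PARD6B* (22.2 kb), which acts in a polarity complex with PARD3, fell by 2.43 (adjusted p = 3.25e-08), far more than *PARD3*. *FAF2* (61.7 kb) fell by 0.18 (adjusted p = 0.00445), while *FAF1* did not pass. For *RAD51B* and *RAD51D*, *MSI2* and *MSI1*, and *PTPRG* and *PTPRA*, the long gene was higher by 0.36, 0.26 and 0.25, and the relative passed the test in none of them. *ATXN1* and its paralog *ATXN1L* (11.3 kb) had near-equal log2 fold changes of -0.80 and -0.77. The differences within pairs were not tested.

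**Figure D4:**
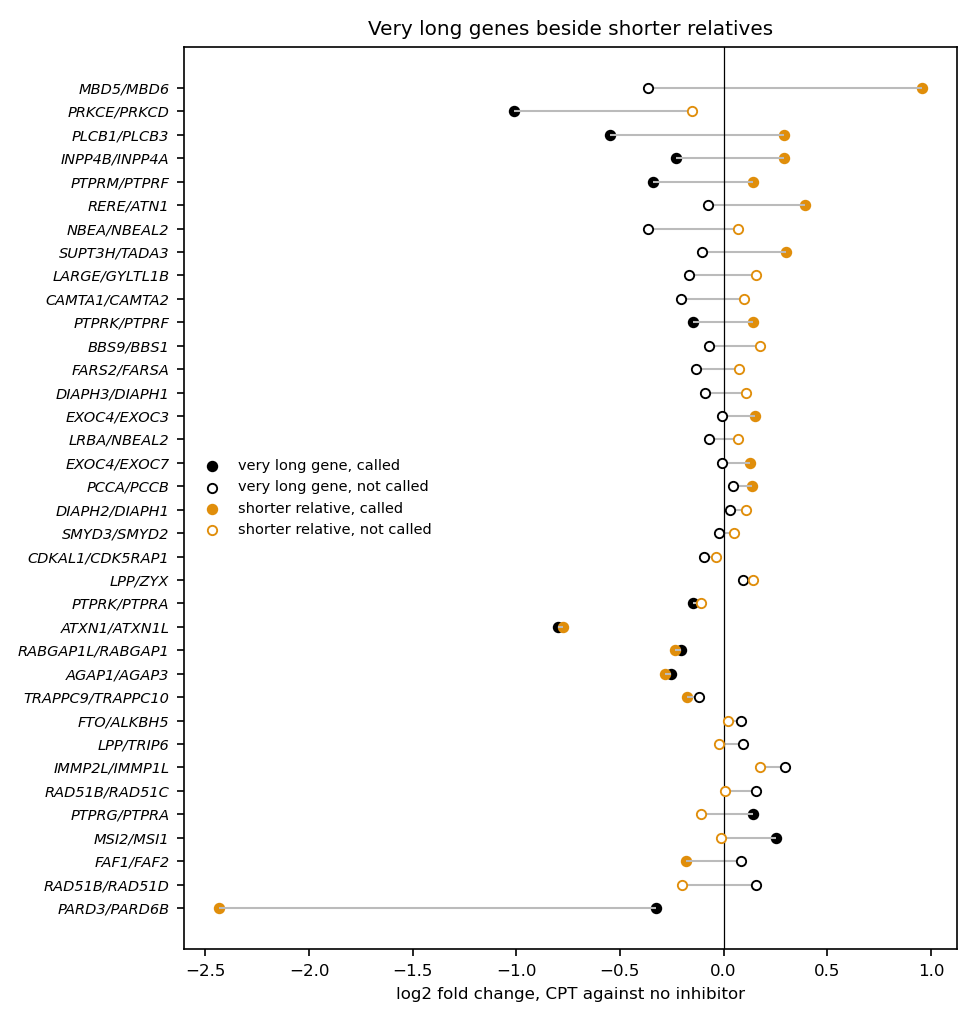
Log2 fold change with CPT (x axis) of very long genes (black) and of a shorter relative (orange) in 36 pairs (y axis, long gene/relative), joined by a line; filled circles passed an adjusted p of 0.05 and open circles did not. In 24 pairs the black circle is to the left, and *PARD6B* at -2.43 is the widest exception.

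ICRF193 changed far fewer genes than CPT, and it lowered a larger share of the very long genes than of all genes. Of the 135 members, 19 fell and 0 rose at an adjusted p under 0.05 (edgeR quasi-likelihood test over 4 pairs, 13631 genes tested). Among all genes tested 1.58% fell and 0.587% rose, and among the 11307 that averaged 50 or more reads, 1.85% fell and 0.681% rose. The members' 14.1% of falls was well above that background, but the changes were small. The median log2 fold change of the members was -0.07, beside 0.00 for all genes, and the 19 falls lay between -0.46 and -0.12. No member was higher at an unadjusted p under 0.05, and 38 were lower, counts with no share of all genes beside them. Of the 135 members, 98 had a log2 fold change below 0 (72.6%), beside 50.9% of the genes averaging 50 or more reads. DESeq2 called 9 members (6.67%), all lower, beside 0.477% of all genes lowered. Without the pairs as a block edgeR called 0 members, with 17 at an unadjusted p under 0.05. In that fit 0 of all 13631 genes were lowered and 3 raised. The calls thus depend on the matching of libraries, for all genes as for the members. By span, the share lowered by ICRF193 was 3.20% under 10 kb, 0.52% at 10 to 30 kb, 0.42% at 30 to 100 kb, 2.74% at 100 to 200 kb and 9.19% at 200 to 400 kb.

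The number of reads moved with the calls. Of 27 members with a mean count of at least 1000, 14 fell with ICRF193 (51.9%), beside 2.45% of 3760 other genes in that count range. Of 55 members with a mean of 200 to 1000 reads, 5 fell, beside 1.60% of 5077 other genes. Of 53 with 50 to 200 reads, 0 fell (median -0.05), beside 0.728% of 2335 other genes. With CPT, 16 members with at least 1000 reads fell (59.3%), beside 24.6% of the other genes in that count range. In the class of 50 to 200 reads 16 fell (30.2%), beside 24.1%, and in the class of 200 to 1000 reads 15 fell (27.3%), which lay below the 34.1% of the other genes.

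*INPP4B* (chromosome 4, 142949182 to 143767604) had the smallest adjusted p. Without inhibitor it had 102.5 and 102.6 CPM in WT cells at 0 and 1 h, and 109 and 115 CPM in p65-deficient cells. With ICRF193 the values were 80.5, 82.5, 90.4 and 95.2 CPM, so that the groups did not overlap. It fell by 0.31 on the log2 scale (standard error 0.04, adjusted p = 1.92e-07), and the pairs ranged only from -0.35 to -0.27. *TIAM1* (chromosome 21, 32490736 to 32931290) had 122 and 126 CPM in WT cells without inhibitor and 110 and 109 CPM with ICRF193. In p65-deficient cells, where its level was higher, it had 194 and 183 CPM without and 149 and 148 CPM with ICRF193. Within each line the inhibitor libraries were lower at both times, and the fall was 0.26 (standard error 0.04, adjusted p = 2.23e-06).

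*MAGI1* fell by 0.29 (adjusted p = 3.29e-06), *ZBTB20* by 0.30 (adjusted p = 5.51e-06) and *APBB2*, an adaptor of the amyloid precursor protein, by 0.23 (adjusted p = 1.05e-05). *SYT1*, a calcium sensor of vesicle fusion, fell by 0.32 (adjusted p = 0.000239), and *DST* by 0.17 (adjusted p = 0.000442). *PCDH7*, a protocadherin, had the widest change among the 19. It had 34.7 and 34.5 CPM in WT cells without inhibitor and 24.8 and 25.5 CPM with ICRF193, and fell by 0.46 (standard error 0.08, adjusted p = 7.00e-05). In p65-deficient cells it had 2 to 5 reads in the 4 libraries compared, so that its value rests on WT cells. The other members that fell were *FRAS1*, *PARD3*, *ARID1B*, *MACF1*, *MCC*, *PTPRK*, *PRKCE*, *PSD3*, *RPTOR*, *CUX1* and *PALLD*. By role, 4 of the 7 members in the partial list for adhesion and polarity fell (*MAGI1*, *PARD3*, *PTPRK* and *MCC*). *PCDH7* and *FRAS1*, which also fell, stood in no list. Of the signalling list 5 of 17 fell, of transcription and chromatin regulators 3 of 16 and of vesicle members 1 of 19. In the lists of RNA and DNA metabolism, enzymes and fragile sites 0 fell. The share over all members was 14.1%, and differences between the lists were not tested.

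**Figure D5:**
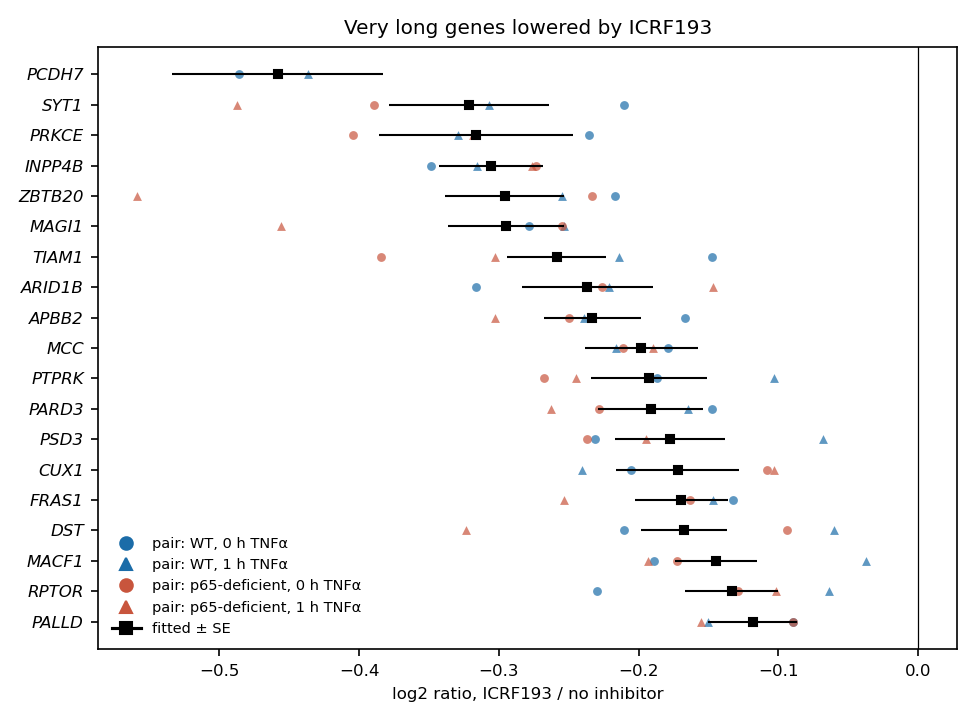
Log2 ratio of ICRF193 to no inhibitor (x axis) for the 19 very long genes lowered by ICRF193 (y axis). Black squares with bars are the fitted value and its standard error over 4 pairs, and coloured symbols are single pairs with at least 10 reads in both libraries; every symbol lies below 0, and *PCDH7* shows the WT pairs only.

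The inhibitors were then compared with each other in 4 pairs. With CPT, 26 members were lower and 9 higher than with ICRF193, beside 25.5% of all 13900 genes tested lower and 20.9% higher. The members' shares of 19.3% and 6.67% were both below those of all genes. Lower with CPT by the most were *PDE4B* (-2.20, adjusted p = 3.02e-06) and *MARCH1* (-1.58, adjusted p = 1.46e-05), and *ZNF407* (-0.84), *GRIN2B* (-0.81), *PRKCE* (-0.70) and *RPTOR* (-0.32) also passed. For *PDE4B* and *MARCH1* the ICRF193 log2 fold changes against no inhibitor were -0.04 (adjusted p = 0.923) and 0.17 (adjusted p = 0.644). The 9 that were higher with CPT were *GMDS*, *FBXL17*, *IMMP2L*, *PRKCA*, *MSI2*, *ADK*, *RSRC1*, *FTO* and *PALLD*, by 0.15 to 0.38. For *INPP4B*, *TIAM1*, *MAGI1* and *APBB2*, which fell with each inhibitor, the difference between CPT and ICRF193 was 0.06, 0.12, -0.02 and 0.02, and did not pass (adjusted p from 0.0967 to 0.827). The 2 sets of values against no inhibitor share their control libraries.

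For TNFα few genes of any kind were called, and no member was among them. In the 3 WT pairs 0 of 135 members passed at an adjusted p under 0.05 in either direction by edgeR or by DESeq2. By edgeR 0.613% of 13707 genes rose and 0.0292% fell, so that 0 members is near the share of all genes. A single pair of the 3 was under CPT. Without that pair 1.48% of all genes tested rose and 1.26% fell, beside 0 members raised and 0.741% lowered. At an unadjusted p under 0.05 edgeR gave 2 members, *FBXL17* at -0.25 and *IMMP2L* at 0.24. The member median was -0.01, and all log2 fold changes lay between -0.32 and 0.26. The CPT effect was also not found to differ with TNFα or with the cell line. Between 1 h and 0 h TNFα, 0 members differed at an adjusted p under 0.05 (0 at an unadjusted p under 0.05), beside 0.00715% of all genes. Between p65-deficient and WT cells, 0 members differed (10 at an unadjusted p under 0.05), beside 4.51% of all genes, and DESeq2 gave 0 in both tests. The nearest was *DNAH14*, a dynein heavy chain, with a difference of -0.49 (adjusted p = 0.0588).

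Between the p65-deficient clone and WT cells, 21 members (15.6%) were higher and 32 (23.7%) lower in the clone at an adjusted p under 0.05 (edgeR, 6 pairs). Among all 13730 genes tested, 15.2% were higher and 16.9% lower in the clone. Among the 11308 that averaged 50 or more reads, 15.7% were higher and 19.1% lower. The share of members higher was thus that of genes in general, and the share lower was only somewhat above it. The split depends on scaling, for all genes as for the members. With total counts in place of TMM factors, 28 members (20.7%) were higher and 26 (19.3%) lower, beside 17.7% and 13.1% of all genes. *PCDH7* (chromosome 4, 30722030 to 31148423, hg19) and *PDE4B* were all but lost in the clone. *PCDH7* had 24.8 to 34.7 CPM in the 6 WT libraries and 0.122 to 0.544 CPM in the 6 clone libraries (log2 fold change -6.46, standard error 0.15, adjusted p = 2.53e-12). *PDE4B* had 2.92 to 14.9 CPM in the WT libraries, of which the 2 lowest were those with CPT, and 0 to 0.336 CPM in the clone libraries (-6.17, standard error 0.24, adjusted p = 4.44e-10). The clone libraries held 0 to 4 reads of *PDE4B* each.

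Other members moved less. *LTBP1*, which binds latent TGFβ, was lower in the clone (-1.71, adjusted p = 6.65e-07), as were *PLCB1* (-1.40, adjusted p = 7.38e-06), *ANK3*, an ankyrin of the membrane skeleton (-0.95, adjusted p = 1.78e-05), and *MAGI1* (-0.39, adjusted p = 1.81e-05). *GRIN2B* was higher, with 1.38 to 3.27 CPM in WT libraries and 5.39 to 13.7 CPM in the clone (2.02, standard error 0.12, adjusted p = 4.00e-08). *ADGRV1*, an adhesion receptor, was higher by 1.51 (adjusted p = 2.75e-06), *PCLO*, a presynaptic scaffold, by 1.03 (adjusted p = 0.000179), *CAMK1D*, a calcium-dependent kinase, by 0.64 (adjusted p = 2.66e-05), *TIAM1* by 0.55 (adjusted p = 3.43e-07) and *FRAS1*, an extracellular matrix protein, by 0.42 (adjusted p = 1.36e-05). *RELA*, which encodes p65, was still read from 38.6 to 47.0 CPM in the clone, below its 48.8 to 63.5 CPM in WT cells. Because the line is 1 clone, loss of p65 and other differences of the clone cannot be told apart.

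Because the clone is p65-deficient, the RefSeq promoter windows of the members (GRCh38.p14, 250 bases before to 50 after the annotated start) were searched on both strands for the NF-κB consensus motif. Windows were found for 112 members, and 12 of them held a match (10.7%), beside 11.3% of all 35116 windows. Of the 27 members with a window that were lower in the clone, 6 held a match, and of the 19 that were higher, 1 did. A match is a description of the letters only, and the annotated start may not be the one used in these cells. The 250 bases before the start are shown for *PDE4B* (chr1:65792260-65792509, plus strand) and *PCDH7* (chr4:30720119-30720368, plus strand), the members with the widest difference between the lines. Neither window held a match.
PDE4B: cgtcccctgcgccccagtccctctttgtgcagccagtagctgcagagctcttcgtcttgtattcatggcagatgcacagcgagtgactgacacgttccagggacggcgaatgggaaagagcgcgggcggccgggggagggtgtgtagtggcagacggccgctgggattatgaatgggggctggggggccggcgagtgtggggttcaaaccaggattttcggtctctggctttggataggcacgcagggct
PCDH7: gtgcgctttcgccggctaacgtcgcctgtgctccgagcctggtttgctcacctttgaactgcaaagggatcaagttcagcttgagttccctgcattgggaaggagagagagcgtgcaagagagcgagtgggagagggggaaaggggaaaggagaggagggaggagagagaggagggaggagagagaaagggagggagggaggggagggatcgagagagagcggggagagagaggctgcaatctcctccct

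The 6 members lower in the clone whose window held the motif are shown with the 30 bases around the first match, in which the capitals mark the motif and any match that overlaps it. They lie at chr2:32946743-32946772 (*LTBP1*, plus strand), chr4:112705590-112705619 (*ANK2*, plus), chr2:179861688-179861717 (*ZNF385B*, minus), chr6:152637425-152637454 (*SYNE1*, minus), chr7:111562476-111562505 (*IMMP2L*, minus) and chr17:60677846-60677875 (*BCAS3*, plus). In the clone these genes were lower by a log2 fold change of -1.71, -0.80, -0.63, -0.51, -0.39 and -0.35, in this order.
LTBP1: accggggcgtGGGGACCTCCgcctcggcga
ANK2: ccaacagccaGGGGCCTCCCgagggaacgt
ZNF385B: tgaggaccgcGGGGGACCCCaggtcgggac
SYNE1: gggaccatcaGGGAACCTCCCagcctttca
IMMP2L: gggtctgcgcGGGGACTTCCCccgggctga
BCAS3: caatcactcgGGGAGACTCCaaacagtgag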

How the data were processed

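Per the file headers and the study's methods, the authors mapped total-RNA reads to hg19 and counted them on the exons of each gene symbol with featureCounts 1.5.0, without strand, and deposited the raw counts of 12 libraries without normalization. The processing notes name Trimmomatic, STAR and deepTools. Genes were tested on these counts with edgeR 4.0.16 (TMM factors, expression filter, quasi-likelihood test, pair as a block, Benjamini-Hochberg adjustment over all genes tested, threshold 0.05). DESeq2 1.42.0 was an alternative, and R 4.3.3, Python 3.11.15, pandas 2.3.3, scipy 1.17.1 and matplotlib 3.10.9 were used. Pairs stand in for replicates, and they differ in the factors not tested, such as line and TNFα for the inhibitors. The spread behind the standard errors and p-values is estimated partly from the other genes tested. They therefore do not measure the spread of a single gene over its own few pairs. RPKM used the exonic length of the files. CPM are counts divided by TMM-scaled library sizes. Between 8101212 and 22051046 reads were counted per library. No library was left out.

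The members, the role lists and the relatives were chosen with earlier results of these data known. The remaining role list is not reported here. The genes named are the 5 members lowered and 5 raised most by CPT among those called with 1 sign in all pairs (3 were raised so), the 5 longest, up to 8 called for ICRF193, up to 6 called in each other comparison and direction, the 2 best counted per role list, 5 pairs of relatives in each direction, the 3 highest in RPKM, and genes at the limits of the rule. *FBXL17*, *ATXN1*, *PTPRK*, *DNAH14*, *HECW1*, *CAMKMT*, *CASK*, the other genes called and the genes with a printed motif were named after their values were seen.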

Additional observations from a re-analysis of the deposited data

How the results depend on the processing

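The members called (51 for CPT, 19 for ICRF193, 35 between the inhibitors and 53 between the lines) kept their sign under each alternative fit in which they were tested. Of 53 members with 50 to 200 reads, 0 were called with ICRF193. With CPT, DESeq2 called 29 members lower (21.5%, beside 20.6% of all genes) and 2 higher (1.48%, beside 17.3%). A fit without the pair block called 30 lower (22.2%, beside 20.8%) and 2 higher (1.48%, beside 16.2%). The WT pairs alone gave 44 lower (32.6%, beside 24.1%) and 1 higher (0.741%, beside 17.3%). In p65-deficient pairs the median was -0.18. Leaving out 1 pair gave 36 to 41 lower and 2 to 3 higher (2 without the WT pair at 1 h or either p65-deficient pair), with medians from -0.15 to -0.14. Of all genes, 21.8% to 24.0% were then lower and 15.4% to 21.3% higher. The share raised was 1.92% among genes of 300 kb or more. With ICRF193, DESeq2 called 9 members lower (6.67%, beside 0.477% of all genes), and no pair block 0, beside 0 of all genes. The p65-deficient pairs gave 7 lower (5.26%, beside 0.515%, median -0.10), and a fit of all 12 libraries 5 (3.70%, beside 0.155%). Leaving out 1 pair gave 13 to 21 lower (without either WT pair 13), beside 0.881% to 1.75% of all genes, with 0 members higher. Those medians ran from -0.0744 to -0.0602. The median with total counts was -0.0610, and 23.2% fell among members with a mean count of at least 200. Between the inhibitors, DESeq2 gave 17 lower (12.6%, beside 20.2% of all genes) and no pair block 5 higher (3.70%, beside 16.0%). Leaving out 1 pair gave 17 to 24 lower (17 without the WT pair at 1 h), beside 22.1% to 24.8% of all genes. It gave 4 to 8 higher (5 and 4 without the p65-deficient pairs at 0 and 1 h), beside 15.5% to 20.2%. The medians ran from -0.08 to -0.06. For TNFα, leaving out 1 pair gave 0 to 1 lower (*RPTOR*, -0.13, without the CPT pair), 0 higher and medians from -0.0127 to -0.0014, and total counts a median of -0.0293. Between the lines, leaving out 1 pair gave 27 to 37 lower and 16 to 22 higher with medians from -0.04 to -0.03. Of all genes, 12.5% to 19.3% were then lower and 10.6% to 18.3% higher. Total counts gave a member median of -0.0184. The CPT effect differed between the lines for 1 member (*DNAH14*) with total counts and for 1 without the expression filter, and DESeq2 gave a median difference of -0.0164. The cause of these shifts was not tested.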
